A study of Mus musculus with 10 samples.

Results

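The genes described here encode the proteins of myelin and of the mature oligodendrocytes that make it: 42 genes, of 20144 gene symbols that could be matched on the array. They were listed by name with earlier results of the same arrays in view, among them that myelin genes had higher values in the knockout, so the difference between the genotypes is given as a description and not as a test of these genes. The array carried 53 probes whose RefSeq accession belongs to the 42 genes. Of these, 51 probes of 41 genes lay well above background in the hippocampus channel on at least 5 of 10 arrays and were kept among 28682 kept probes. The probe of Nipal4 was above background on 0 of 10 arrays and has no level here, and 1 of the 2 Enpp6 probes was dropped as well.

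Adult hippocampus was taken from mice with a conditional knockout of DLK (cKO, 5 samples) and from DLK wild-type mice (WT, 5 samples). DLK is a stress kinase of neurons, and its gene is Map3k12. Mice of both genotypes ate a tamoxifen diet for 3 weeks before dissection, so the drug is common to all groups. The recombinase, the cells in which it acts, and the age in weeks and sex of the mice are not given in these sources. Each sample was labelled with Cy5 and hybridised with a Cy3-labelled pool of mouse RNA sold as a reference by Stratagene, 1 array per sample and without a dye swap. A value below is the log2 ratio of hippocampus over that pool, and a difference is cKO minus WT on the same scale. The labels do not say that the samples of a group came from separate mice, so errors measure the spread between these 5 samples.

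Oligodendrocytes wrap axons of the brain in many turns of their own membrane. The wraps are held together by a small set of proteins, are rich in cholesterol and galactolipids, and are sealed at their edges by junctions. In the hippocampus most of this myelin lies in the fibre tracts that border it, the alveus and fimbria, and in the deep layers. In bulk tissue fewer cells of a type and less RNA per cell cannot be told apart.

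Map3k12 itself averaged 0.51 ± 0.24 in cKO and 1.93 ± 0.19 in WT hippocampus (SD, n = 5 each), and all 5 cKO arrays lay below all 5 WT arrays (limma, adjusted p = 0.000502). All 10 probes of a list of hippocampal principal cell markers were above 1 on the log2 scale on all 5 WT arrays, where 17.6% of all kept probes were. So were all 12 probes of general neuron markers and all 13 of astrocyte markers. This check therefore does not tell hippocampus from other brain tissue. Of the 3 slides, the first carried cKO arrays 1, 3, 4 and 5, the second (slide 2) cKO array 2 with WT arrays 1, 2 and 4, and the third (slide 3) WT arrays 3 and 5. Genotype within a slide therefore rests on 1 cKO array against 3 WT arrays. Median Cy5 signals were 146 to 202 over backgrounds of 29 to 31, and an array had 69.6% to 76.1% of its probes well above background. WT array 5 and cKO array 5 stood apart for myelin genes, as described with the results, and the values without them are given there.

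Myelin genes are driven by the transcription factors Sox10 and Myrf, and both have short recognition sequences. The 250 bases before the transcription start of each gene were searched on both strands for ACAAAG, a SOX motif, and for CTGGCAC or CTGGTAC, a MYRF motif, which can share the letters AC where they adjoin. RefSeq promoter sequences (GRCm38.p6) were matched for 29 of the 42 genes. The SOX motif was found before 8 of the 29 genes (27.6%), namely Mag, Mobp, Cnp, Opalin, Gjb1, Klk6, Plxnb3 and Apod, and before 4452 of all 27025 genes with a promoter (16.5%). The MYRF motif was found before 6 of 29 (20.7%), namely Mog, Mag, Cnp, Hapln2, Lpar1 and Nipal4, and before 1590 of all genes (5.88%). Mag and Cnp held both motifs (6.9% of the 29 genes, against 1.06% of all genes). A match is only a run of letters and says nothing of binding.

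The stretches of 4 genes are shown because they hold the motifs, those of Mag and Cnp both motifs, at genes whose array values follow. Each is the 180 bases that end at the base before the start, 5′ to 3′ on the gene's own strand, and capitals mark a motif on either strand. Cnp lies on the plus strand at chr11:100574759-100574938, Mag on the minus strand at chr7:30914923-30915102, Opalin on the minus strand at chr19:41077114-41077293 and Plxnb3 on the plus strand at chrX:73756923-73757102.
Cnp: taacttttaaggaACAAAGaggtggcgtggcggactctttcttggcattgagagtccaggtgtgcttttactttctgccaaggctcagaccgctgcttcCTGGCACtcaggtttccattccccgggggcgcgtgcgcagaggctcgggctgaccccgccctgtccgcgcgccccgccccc
Mag: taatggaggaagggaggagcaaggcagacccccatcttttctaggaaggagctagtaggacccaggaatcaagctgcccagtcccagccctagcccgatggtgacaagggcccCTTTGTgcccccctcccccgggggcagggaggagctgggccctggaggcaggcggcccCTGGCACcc
Opalin: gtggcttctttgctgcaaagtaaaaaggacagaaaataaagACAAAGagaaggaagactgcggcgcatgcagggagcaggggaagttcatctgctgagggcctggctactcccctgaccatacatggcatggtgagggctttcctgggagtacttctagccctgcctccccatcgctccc
Plxnb3: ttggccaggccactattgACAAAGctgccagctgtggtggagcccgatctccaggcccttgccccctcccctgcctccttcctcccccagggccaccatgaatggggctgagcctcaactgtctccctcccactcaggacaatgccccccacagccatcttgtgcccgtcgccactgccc
The MYRF motif of Mag lies 9 bases before the start and that of Cnp 81 bases before it.

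Myelin RNA was abundant in the hippocampus relative to the reference pool. Over the 51 probes the median log2 ratio was 2.64 in cKO and 2.22 in WT samples. In WT, 38 of 51 probes were above 1 on all 5 arrays, where 17.6% of all kept probes were, and 38 of 51 were above 1 on all 10 arrays, against 17.1% of all kept probes. The dye effect is part of such a level, and for 11 of the 51 probes the reference was above background on fewer than 5 arrays, so that their level is a lower bound. Carns1, Myrf and Anln had WT means below 0. The plot of member probes on every array shows these levels by role.

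**Figure D1:**
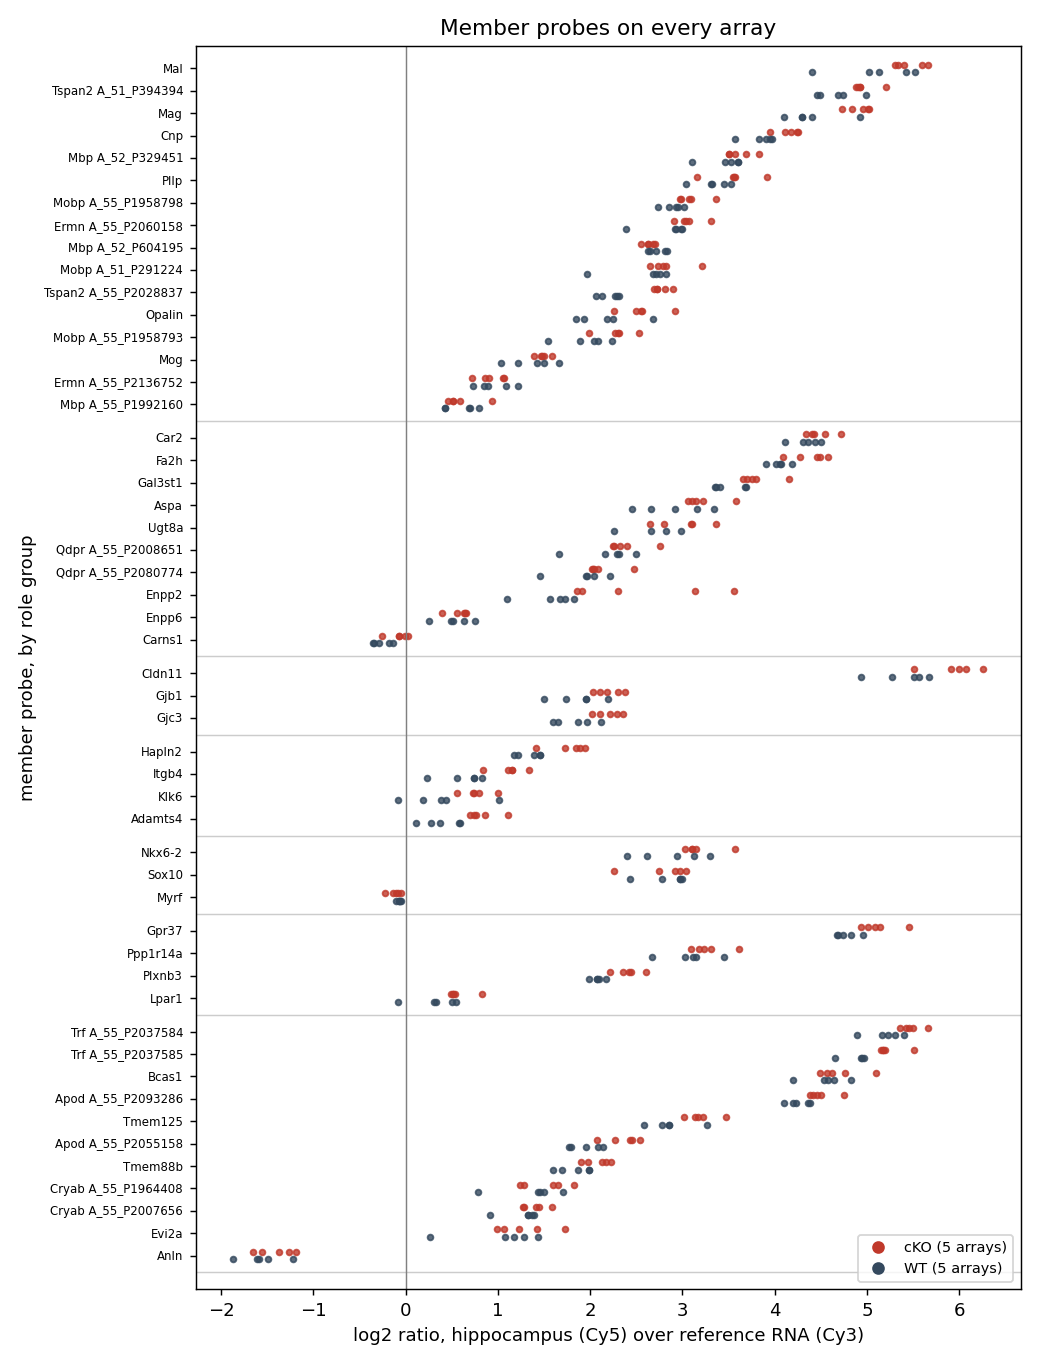
Log2 ratio of hippocampus over reference RNA (horizontal axis) for each kept member probe (rows, by role group), with 1 point per array for cKO and WT. Most probes lie above 1, and the probes of Carns1, Myrf and Anln lie below 0 on average.

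Most members had higher values in the knockout. Higher means in cKO were found for 46 of 51 probes, against 54.6% of all kept probes, and the median difference was 0.28, a ratio of 1.22, against 0.01 over all kept probes. The differences spanned −0.09 to 0.97, which are ratios of 0.942 to 1.96, and only the Enpp2 probe passed a ratio of 1.5. All 5 cKO arrays lay above all WT values for 6 probes (0.533% of all kept probes did so) and below them for 0 probes (0.223% of all kept probes). A single probe, of Tspan2, passed an adjusted p of 0.05 over all kept probes (0.00697% of which were called higher), and 0 were called lower (0.00349% of all kept probes). At an unadjusted p under 0.05 there were 27 probes with higher values and 0 with lower values, where 2.78% and 1.04% of all kept probes were. The choice of genes drew on this contrast, so nothing is read from these counts.

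Taken per sample, the median deviation of the 51 probes from their WT mean was 0.21, 0.25, 0.20, 0.20 and 0.51 in cKO samples 1 to 5, against 0.17, 0.08, −0.02, 0.06 and −0.29 in WT samples 1 to 5. All 5 cKO values were above all WT values. The gap between the closest samples, cKO 3 or 4 and WT 1, was small, and the spread within a genotype was wide: WT 5 was the lowest WT array for 39 of 51 probes and cKO 5 the highest cKO array for 35. Without both of these arrays the median difference was 0.15, with 42 of 51 probes higher in cKO. Within slide 2, cKO array 2 was above the mean of the 3 WT arrays for 40 of 51 probes (50.2% of all kept probes), with a median difference of 0.12 and a range of −0.11 to 1.39. Over the alternative settings of processing and arrays, 32 of the 51 probes had a positive difference in every setting that gave a value.

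**Figure D2:**
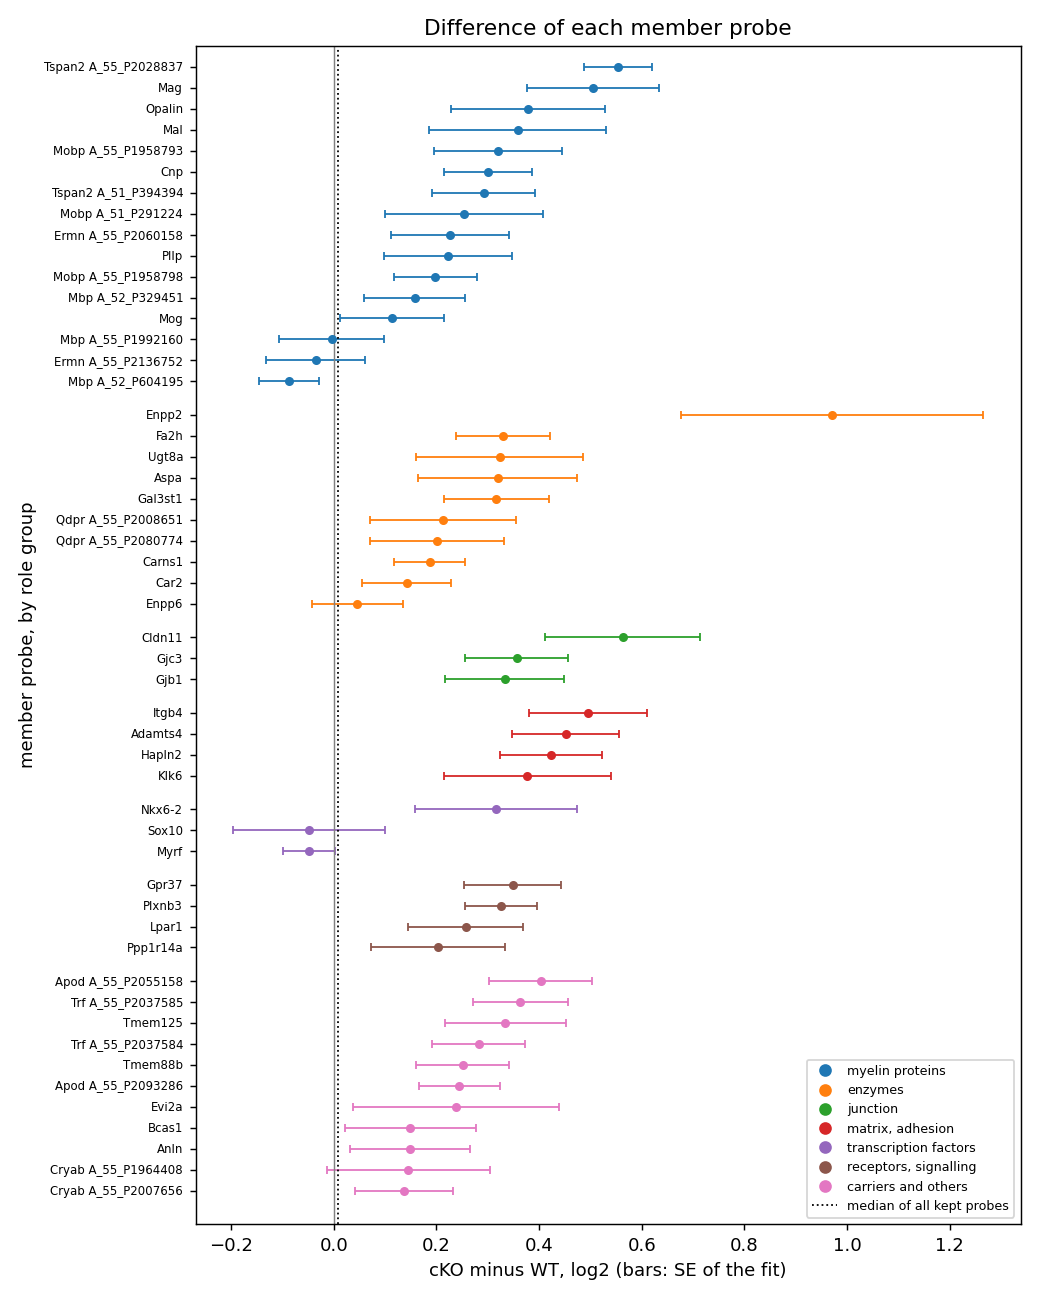
Difference in log2 ratio, cKO minus WT (horizontal axis, bars are the SE of the fit), for each kept member probe, grouped by role. Most points lie right of 0, Enpp2 is farthest right at 0.97, and 2 probes of Mbp, 1 of Ermn, Myrf and Sox10 lie left of 0.

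Of the proteins that build myelin membrane, 13 of 16 probes had higher means in cKO, with a median difference of 0.24, and 0.12 within slide 2. Mag, the myelin-associated glycoprotein of the inner, axon-facing wrap, read 4.73, 5.02, 5.01, 4.83 and 4.95 on cKO arrays 1 to 5, against 4.93, 4.40, 4.29, 4.29 and 4.10 on WT arrays 1 to 5. The groups overlapped through WT array 1, which was above 2 of the cKO arrays, while the other 4 WT arrays were all below every cKO array. Mag averaged 4.91 ± 0.12 in cKO and 4.40 ± 0.31 in WT samples (SD, n = 5 each), a difference of 0.51 (SE 0.13) and a ratio of 1.42, and 0.48 within slide 2.

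Tspan2, a tetraspanin of oligodendrocytes, had 2 probes for the same accession. The dimmer one, A_55_P2028837, read 2.73, 2.69, 2.72, 2.81 and 2.89 in cKO samples, against 2.29, 2.32, 2.13, 2.27 and 2.06 in WT samples. Its genotypes did not overlap. It averaged 2.77 ± 0.08 in cKO and 2.22 ± 0.11 in WT samples (SD, n = 5 each), and the difference was 0.55 (SE 0.07), with a 95% interval of 0.41 to 0.70, a ratio of 1.47 and a limma adjusted p of 0.0181. Its Cy5 signals overlapped, at 413 to 523.5 in cKO and 305.5 to 499 in WT samples, and its reference spot, at 40 to 73.5, was above background on 1 of 10 arrays. From the Cy5 channel alone the difference was 0.34. It kept a positive sign in 28 settings, from 0.34 to 2.38, and had an adjusted p under 0.05 in 12. The brighter probe, A_51_P394394, read 4.93, 4.93, 4.88, 4.90 and 5.20 in cKO, against 4.99, 4.75, 4.49, 4.69 and 4.46 in WT samples. Here WT array 1 was above 4 of the cKO arrays, the difference was 0.29 (SE 0.10), and within slide 2 it was 0.12.

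Mbp, myelin basic protein, which zips the inner faces of the membrane together, was measured by 3 probes that did not share a direction. Probe A_52_P329451 read 3.57, 3.50, 3.69, 3.50 and 3.83 in cKO, against 3.60, 3.47, 3.53, 3.60 and 3.11 in WT samples. WT arrays 1, 3 and 4 lay within the cKO range and WT array 5 lay far below it, and the difference was 0.16 (SE 0.10). Probe A_52_P604195 read 2.63, 2.68, 2.71, 2.55 and 2.63 in cKO and 2.65, 2.81, 2.83, 2.71 and 2.63 in WT samples, and A_55_P1992160 read 0.51, 0.94, 0.46, 0.59 and 0.52 in cKO and 0.42, 0.70, 0.43, 0.79 and 0.69 in WT samples. The genotypes overlapped at both, with differences of −0.09 (SE 0.06) and −0.0042 (SE 0.10). The first of these was below 0 in all 29 alternative settings, and the second was above 0 in 13 of 28. The first was also the brightest of the 3 probes, with Cy5 signals of 7506.5 to 10935 in cKO and 10217 to 12279 in WT samples. The second was dim, at 81 to 119 in cKO and 83 to 115 in WT samples. Its reference was above background on only 4 of 10 arrays. Mbp thus gave no probe that separated the genotypes, while 1 of the Tspan2 probes in the same group did.

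Ermn, ermin, a cytoskeletal protein of mature oligodendrocytes, also had 2 probes of unlike sign. A_55_P2060158 read 2.91, 3.07, 3.02, 3.04 and 3.31 in cKO, against 3.00, 2.93, 2.92, 2.98 and 2.38 in WT samples, and A_55_P2136752 read 1.06, 0.91, 0.72, 1.05 and 0.86 in cKO, against 0.73, 0.84, 0.89, 1.09 and 1.22 in WT samples. At the first, WT array 5 was far below every other array, and at the second it was the highest of all 10. The differences were 0.23 (SE 0.12) and −0.04 (SE 0.10). The remaining proteins of this group all had higher means in cKO. They were Mog, a surface immunoglobulin-like protein of the outermost wrap (0.11, SE 0.10), Cnp, the phosphodiesterase that keeps cytoplasmic channels open (0.30, SE 0.09), Mal, a lipid-raft protein (0.36, SE 0.17), Pllp, plasmolipin (0.22, SE 0.13), Opalin, an oligodendrocyte membrane glycoprotein (0.38, SE 0.15), and Mobp at 3 probes (0.20 to 0.32). For Cnp 4 of the 5 cKO arrays were above all WT arrays, and the slide 2 difference was 0.31. For Mog and Mobp probe A_51_P291224 the slide 2 differences were −0.03 and −0.11.

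**Figure D3:**
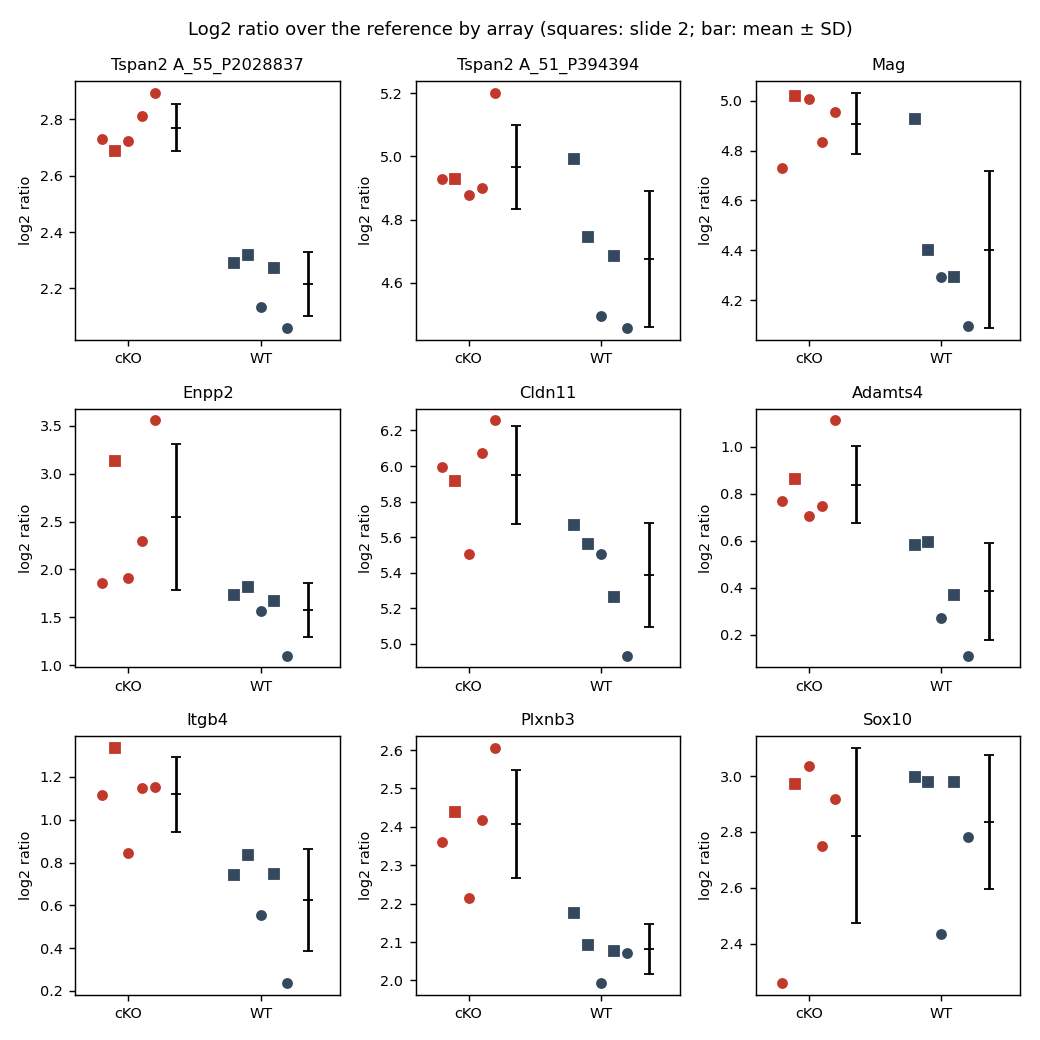
Log2 ratio over the reference RNA (vertical axes) on each cKO array and each WT array for selected probes, with squares for the arrays of slide 2 and bars for the mean ± SD. Tspan2 A_55_P2028837, Enpp2, Adamts4, Itgb4 and Plxnb3 show no overlap between the genotypes. Sox10 overlaps, with cKO arrays both lowest and highest.

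Enzymes of oligodendrocytes had higher means in cKO at all 10 probes, with a median difference of 0.26, which was 0.05 within slide 2. Enpp2, autotaxin, which makes lysophosphatidic acid and is also made by choroid plexus, read 1.86, 3.14, 1.91, 2.30 and 3.55 in cKO samples 1 to 5, against 1.73, 1.82, 1.57, 1.67 and 1.10 in WT samples 1 to 5. The genotypes did not overlap, and cKO arrays 2 and 5 were well above the rest. From high to low the cKO arrays ran 5, 2, 4, 3 and 1. A list of choroid plexus markers, described below, had the same order (1.36, 0.89, 0.57, 0.25 and 0.15). Within slide 2 the Enpp2 difference was 1.39. The part of choroid plexus in the Enpp2 values was not tested. Enpp2 averaged 2.55 ± 0.76 in cKO and 1.58 ± 0.28 in WT samples (SD, n = 5 each), and the difference was 0.97 (SE 0.29), with a 95% interval of 0.33 to 1.61, and it was 0.60 without both replicates numbered 5. Without Enpp2 the median over the other 50 probes was 0.27, with 45 higher in cKO.

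Galactolipids of myelin are made by a chain of enzymes that the array covered. Fa2h, the fatty acid 2-hydroxylase of myelin lipids, read 4.27, 4.58, 4.09, 4.50 and 4.46 in cKO, against 4.06, 4.19, 3.90, 4.07 and 4.02 in WT samples. The lowest cKO array, 3, lay below WT array 2 and the other 4 lay above all WT arrays, with a difference of 0.33 (SE 0.09). Its reference spot was above background on 0 arrays, and the sign turned when background was simply subtracted (−0.50) and in the scanner software's processed values (−0.31). Ugt8a, which joins galactose to ceramide, was at 0.32 (SE 0.16) and Gal3st1, which adds the sulfate of sulfatide, at 0.32 (SE 0.10). Aspa, which releases acetate from N-acetylaspartate for lipid synthesis, had a difference of 0.32 (SE 0.15). Enpp6, a choline phosphodiesterase of newly forming oligodendrocytes, was the smallest of the group: it read 0.39, 0.56, 0.64, 0.63 and 0.65 in cKO, against 0.52, 0.76, 0.49, 0.64 and 0.25 in WT samples, overlapping throughout, with a difference of 0.05 (SE 0.09). Its Cy5 signals were low, at 64 to 86 in cKO and 55.5 to 82.5 in WT samples. Its reference was above background on 0 of 10 arrays, so this difference lies near the background of the array. Car2, carbonic anhydrase 2, Carns1, which makes carnosine, and Qdpr, which recycles tetrahydrobiopterin, had differences between 0.14 and 0.21.

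All 3 junction proteins had higher means in cKO, with a median difference of 0.36 (0.27 within slide 2). Cldn11, the claudin of the tight junctions between myelin wraps, read 5.99, 5.92, 5.51, 6.08 and 6.26 in cKO, against 5.67, 5.56, 5.51, 5.27 and 4.93 in WT samples. Only cKO array 3 lay within the WT range, and the difference was 0.56 (SE 0.15), a ratio of 1.48. Gjb1, a connexin of the gap junctions within myelin, read 2.10, 2.31, 2.19, 2.03 and 2.38 in cKO, against 2.20, 1.95, 1.73, 1.96 and 1.50 in WT samples, a difference of 0.33 (SE 0.12). Gjc3, a further connexin of myelin, read 2.21, 2.02, 2.29, 2.11 and 2.35 in cKO and 2.11, 1.96, 1.60, 1.87 and 1.65 in WT samples, a difference of 0.36 (SE 0.10) that was 0.04 within slide 2. In both connexins WT array 1 lay among the cKO arrays.

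Matrix and adhesion genes had higher means in cKO at all 4 probes, with a median difference of 0.44, and 0.47 within slide 2. Adamts4, a metalloprotease of mature oligodendrocytes that cleaves proteoglycans, read 0.77, 0.86, 0.70, 0.75 and 1.11 in cKO, against 0.58, 0.60, 0.27, 0.37 and 0.11 in WT samples. Itgb4, integrin beta 4, read 1.11, 1.34, 0.84, 1.15 and 1.15 in cKO, against 0.74, 0.83, 0.56, 0.75 and 0.24 in WT samples. Neither gene's genotypes overlapped, although the lowest cKO value was near the highest WT value in both. Adamts4 averaged 0.84 ± 0.16 in cKO and 0.39 ± 0.21 in WT samples, and Itgb4 1.12 ± 0.18 in cKO and 0.62 ± 0.24 in WT samples (SD, n = 5 each). The differences were 0.45 (SE 0.10) and 0.50 (SE 0.11), and 0.35 and 0.56 within slide 2. Hapln2, a link protein of the matrix at nodes of Ranvier, was at 0.42 (SE 0.10), with 4 cKO arrays above all WT arrays. Klk6, a serine protease, read 0.73, 1.0, 0.56, 0.75 and 0.80 in cKO, against 1.02, 0.44, 0.18, 0.39 and −0.08 in WT samples, where WT array 1 was the highest of all 10 and WT array 5 the lowest, with a difference of 0.38 (SE 0.16).

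Of the 3 transcription factors 1 was higher in cKO, and the median difference was −0.05. It was 0.08 without cKO array 1 and 0.02 within slide 2. It was 0.13 over probes above background on all 10 arrays, 0.13 when no spot was left out of the background fit and 0.25 from the Cy5 channel alone. Sox10, the lineage factor, read 2.26, 2.97, 3.04, 2.75 and 2.92 in cKO, against 3.00, 2.98, 2.44, 2.98 and 2.78 in WT samples. The genotypes overlapped, with cKO array 1 the lowest and cKO array 3 the highest of all 10. The difference was −0.05 (SE 0.15). It was 0.08 without cKO array 1, 0.25 from the Cy5 channel alone and 0.13 when no spot was left out of that fit. Myrf, the factor that starts the myelin programme, read −0.13, −0.05, −0.10, −0.08 and −0.23 in cKO, against −0.06, −0.05, −0.07, −0.10 and −0.07 in WT samples, and was well above background on only 2 of 5 cKO and 3 of 5 WT arrays, so its difference of −0.05 (SE 0.05) lies near the background of the array. Nkx6-2, a homeodomain factor of mature oligodendrocytes, read 3.11, 3.15, 3.11, 3.03 and 3.57 in cKO, against 3.29, 3.13, 2.62, 2.94 and 2.40 in WT samples, with a difference of 0.32 (SE 0.16) and 0.02 within slide 2. Here cKO array 5 was the highest and WT array 5 the lowest of all 10.

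Receptors and signalling genes had higher means in cKO at all 4 probes, with a median difference of 0.29 and 0.11 within slide 2. Plxnb3, a plexin receptor for semaphorins, read 2.36, 2.44, 2.22, 2.42 and 2.61 in cKO, against 2.18, 2.09, 1.99, 2.08 and 2.07 in WT samples, without overlap and with a difference of 0.33 (SE 0.07) and of 0.32 within slide 2. Gpr37, an orphan receptor of oligodendrocytes, read 5.09, 4.93, 5.01, 5.14 and 5.46 in cKO, against 4.95, 4.83, 4.67, 4.74 and 4.68 in WT samples. WT array 1 was above cKO array 2, the genotypes otherwise did not overlap, and the difference was 0.35 (SE 0.09), but 0.09 within slide 2. Ppp1r14a, an inhibitor of myosin phosphatase, read 3.09, 3.23, 3.31, 3.18 and 3.61 in cKO and 3.45, 3.03, 3.11, 3.15 and 2.67 in WT samples. WT array 1 was above 4 of its cKO arrays, and the difference was 0.20 (SE 0.13). Lpar1, a receptor for the lysophosphatidic acid that Enpp2 makes, was at 0.26 (SE 0.11).

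Carriers, a chaperone and other proteins had higher means in cKO at all 11 probes, with a median difference of 0.25 and 0.11 within slide 2. Trf, the iron carrier transferrin, made in the brain by oligodendrocytes and choroid plexus, read 5.18, 5.20, 5.17, 5.15 and 5.51 in cKO samples at probe A_55_P2037585, against 4.95, 4.97, 4.94 and 4.65 in WT samples 2 to 5. The WT 1 spot was left out because the scanner software had marked it, the others did not overlap, and the difference was 0.36 (SE 0.09). The second Trf probe was at 0.28 (SE 0.09). Apod, apolipoprotein D, read 2.45, 2.27, 2.08, 2.54 and 2.43 in cKO, against 2.14, 2.09, 1.96, 1.79 and 1.77 in WT samples, a difference of 0.40 (SE 0.10), and 0.24 (SE 0.08) at its other probe. Only cKO array 3 lay within the WT range at the first. Cryab, a small heat-shock chaperone, read 1.27, 1.41, 1.45, 1.29 and 1.59 in cKO and 1.39, 1.33, 1.37, 1.32 and 0.91 in WT samples at probe A_55_P2007656. The genotypes overlapped there, with cKO arrays 2, 3 and 5 above all WT arrays and WT array 5 below every other array. The difference was 0.14 (SE 0.10). Tmem88b (0.25, SE 0.09), Tmem125 (0.33, SE 0.12), Evi2a (0.24, SE 0.20), Bcas1 (0.15, SE 0.13) and Anln, anillin of the septin cytoskeleton (0.15, SE 0.12), completed the group.

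By role group and sample, the median deviation from the WT mean was above all 5 WT values in every cKO sample for the myelin membrane proteins and for the matrix and adhesion genes, in 4 of 5 for junction proteins, receptors and carriers, in 3 of 5 for enzymes and in 1 of 5 for transcription factors. For the myelin membrane proteins the closest samples were nearly level, cKO 1 at 0.1511 and WT 1 at 0.1494. For matrix and adhesion genes the median deviation was 0.39, 0.61, 0.19, 0.44 and 0.52 in cKO, against 0.16, 0.16, −0.09, 0.06 and −0.33 in WT samples. For transcription factors it was −0.06, 0.14, 0.20, −0.01 and 0.08 in cKO, against 0.16, 0.14, −0.26, 0.06 and −0.05 in WT samples. Whether these groups differ from each other was not tested, since the members were chosen with the contrast known.

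**Figure D4:**
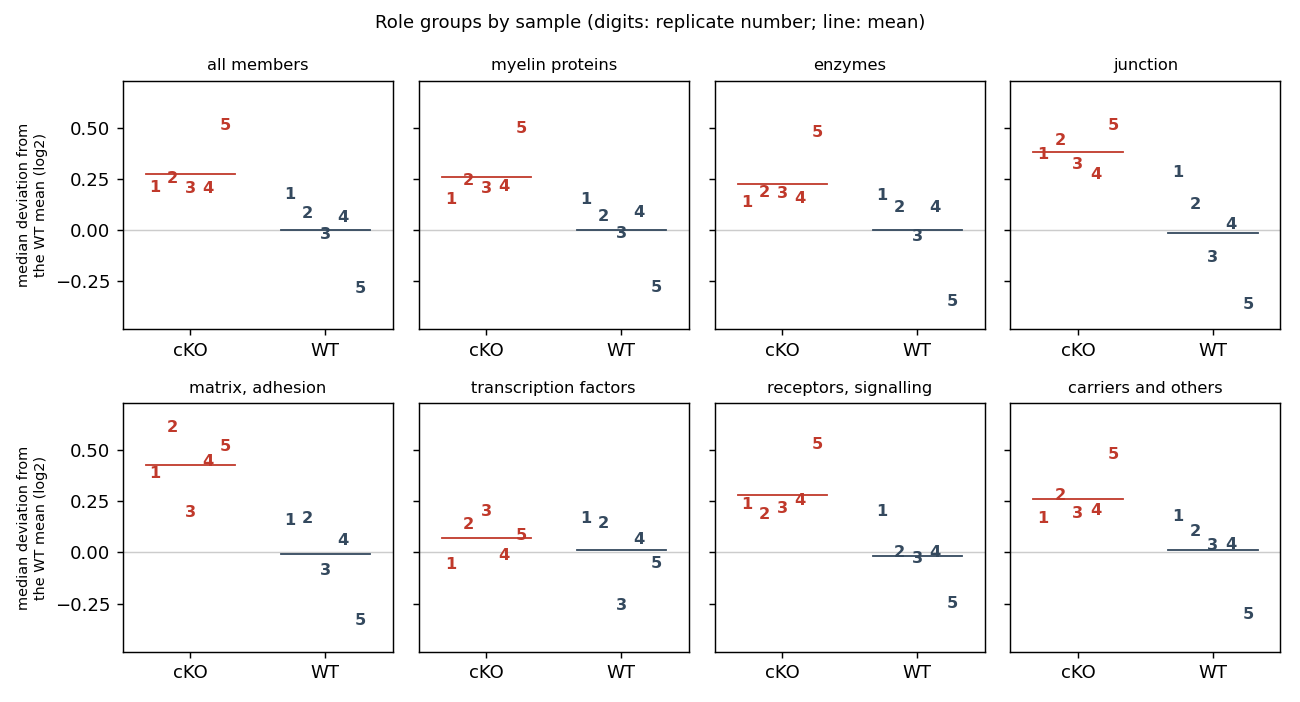
Median deviation from the WT mean on the log2 scale (vertical axis) in each cKO and each WT sample, for all 51 member probes and for each role group, with the replicate number as the point and a line at the mean. The cKO samples lie above the WT samples for all members, cKO 5 is highest and WT 5 lowest there, and the transcription factor group overlaps most.

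Of 42 kept probes of other oligodendrocyte and myelin genes, 39 had higher means in cKO, with a median difference of 0.12 and 0.09 within slide 2. At an unadjusted limma p under 0.05, 8 had higher values. Of all kept probes 54.6% had higher means and 2.78% had higher values at that p. Among those of largest difference were Gsn, the actin-severing protein gelsolin, at 0.44 (SE 0.12), and Cd82, a tetraspanin, at 0.32 (SE 0.12). Of 23 probes of cholesterol synthesis, the pathway that feeds myelin lipid, 12 were higher and 11 lower, with a median of 0.00, and 0 had an unadjusted p under 0.05 with higher values. Of 16 probes of oligodendrocyte precursors 15 were higher, but by a median of 0.07 and 0.01 within slide 2. None of these probes passed over all kept probes (0.0105% of which did).

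Markers of other tissue moved with the myelin genes, and their part in the result was not tested. The choroid plexus list, the secretory epithelium of the ventricle that lies against the fimbria, was higher in cKO at all 21 probes (54.6% of all kept probes). At an unadjusted limma p under 0.05, 15 of them were higher (2.78% of all kept probes). The median difference was 0.62 (0.91 within slide 2), led by 2 probes of Kcnj13 (1.64 and 1.60) and Otx2 (1.20). Its median deviation was 0.15, 0.89, 0.25, 0.57 and 1.36 in cKO, against 0.04, 0.15, 0.13, −0.14 and −0.21 in WT samples. As with the myelin genes, cKO 5 was highest, WT 5 was lowest and all 5 cKO values were above all WT values. The closest samples were nearly level, cKO 1 at 0.1524 and WT 2 at 0.1501. The ependyma list gave 0.13, 0.37, 0.05, 0.40 and 0.80 in cKO, against 0.12, 0.37, 0.10, −0.09 and −0.54 in WT samples, again with WT 5 lowest. Schwann cell genes had a median difference of 0.00 over 7 probes, and thalamus genes 0.13 over 10. At an unadjusted limma p under 0.05, 2 of the 10 thalamus probes were higher (2.78% of all kept probes). They were Zic1 A_51_P194230 at 0.64 (SE 0.14) and Tnnt1 at 0.40 (SE 0.18). The other Zic1 probe was at 0.09. At A_51_P194230 the lowest cKO value was 4.18 and the highest WT value 4.14, without overlap (0.533% of all kept probes). General neuron markers were at 0.10, astrocyte markers at 0.11 and microglia markers at 0.07, and endothelial ones at 0.18. Probes higher in cKO were 12 of 12 for neurons, 10 of 10 for ependyma and 10 of 11 for microglia. They were 9 of 13 for astrocytes, 7 of 8 for endothelium and 9 of 10 for thalamus. For hippocampal principal cells they were 7 of 10, and for Schwann cells 4 of 7 (54.6% of all kept probes). At an unadjusted limma p under 0.05, 4 of 8 endothelial probes were higher (2.78% of all kept probes). That count was 2 of 10 for ependyma, 1 of 12 for neurons and 0 for astrocytes and microglia. Within slide 2, where the median of the 51 myelin probes was 0.12, neuron markers were at 0.16, ependyma at 0.26, endothelium at 0.11, thalamus at 0.10, Schwann cells at 0.0064, hippocampal principal cells at −0.11, astrocytes at −0.29 and microglia at −0.11. The myelin median on that slide was below those of the neuron, ependyma and choroid plexus lists.

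**Figure D5:**
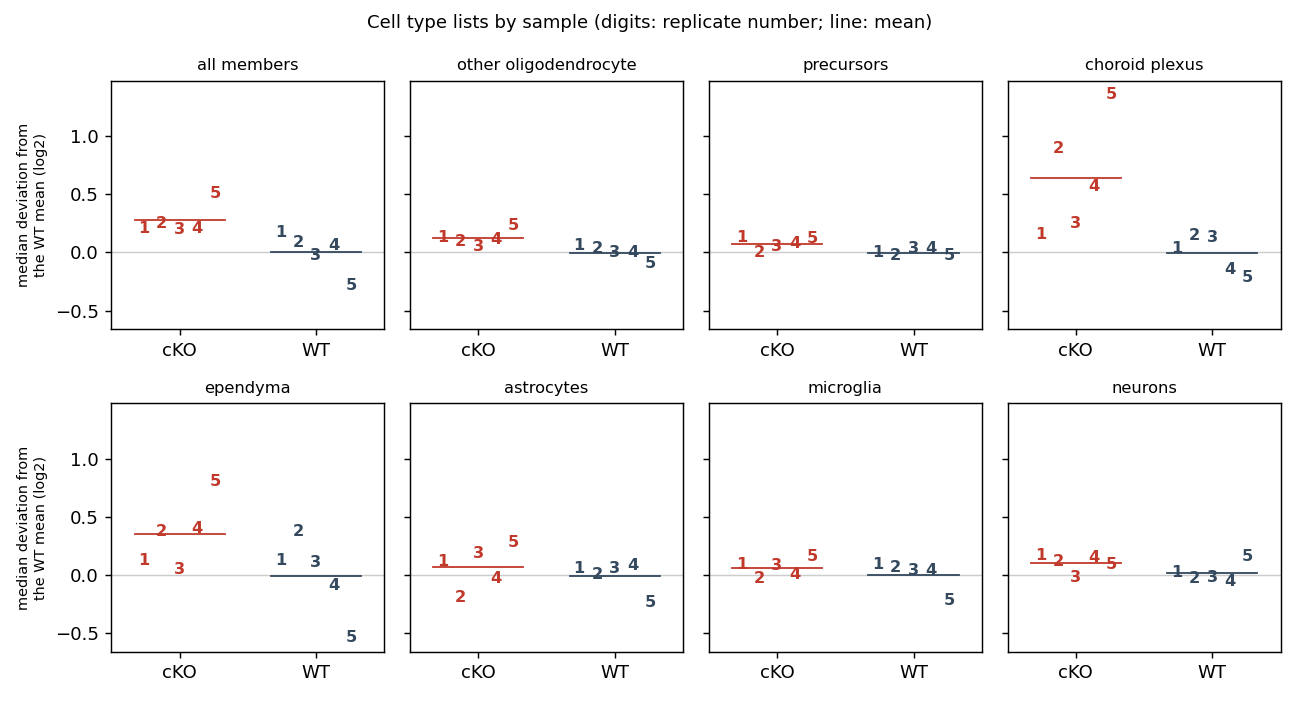
Median deviation from the WT mean on the log2 scale (vertical axis) in each cKO and each WT sample for the member genes and for the marker lists of other cell types, with the replicate number as the point and a line at the mean. Choroid plexus and ependyma lists have the widest spread between samples, with cKO 5 highest and WT 5 lowest.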

How the data were processed

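Scanner output deposited by the authors gives an intensity per spot for the hippocampus (Cy5) and the reference pool (Cy3); per the file headers it was made by Feature Extraction 11.0.1.1 of Agilent. It also gives a deposited log10 ratio per spot, after the software's own background and dye correction. The authors' deposited value table holds log2 ratios; over all arrays it correlated with the ratios computed here at 0.99997 or more. The submitters' processing notes also name limma. From the median signals, log2 ratios were computed with limma 3.58.1 in R 4.3.3: normexp background correction with an offset of 50, spots marked as non-uniform removed before it and population outliers before averaging, loess within arrays, control spots (1377 of 44397) at weight 0, and spots of a probe averaged. The offset and a dim reference pull ratios towards 0. Probes with Cy5 well above background on at least 5 of 10 arrays (28682 of 39429) were fitted together (lmFit, eBayes, Benjamini-Hochberg adjustment), without slide as a term. Accessions were named through RefSeq for 67.4% of probes. No member probe counted as saturated in the Cy5 channel on any of the 10 arrays. This was judged over a probe's spots together, and the Cy3 channel was not checked. Depth does not apply to arrays, and their number, 5 per genotype, limits the precision.

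The member genes, role groups and marker lists were chosen with earlier results of these data known. Every member is named. Values of all arrays are given for probes past the threshold, those whose genotypes do not overlap, the largest 2 and smallest 1 differences of each role group, and probes of a gene that differ in sign or by over 0.2. Of other lists the 3 largest differences may be named. Some results are not reported here.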

Additional observations from a re-analysis of the deposited data

Results flagged for a closer look

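In 146 groups of 4 or 5 samples tested with Dixon's 95% critical value, 22 held a highest or lowest sample farther from its neighbour than that value, where chance gives about 1 in 20; probes and lists share their samples, so these are not independent. Sample 5 of either genotype was behind 19 of the 22. WT 5 was low at Mbp A_52_P329451 (3.11, next 3.46), Mobp A_51_P291224 (1.96), Ermn A_55_P2060158 (2.38), Trf A_55_P2037585 (4.65) and both Cryab probes (0.79 at A_55_P1964408 and 0.91 at A_55_P2007656). The same sample was low in the median deviation of the astrocyte list (−0.24) and the microglia list (−0.22). It was the highest WT sample for neuron markers (0.16) and the highest of all 10 samples for hippocampal principal cell markers (0.26). Its median Cy5 signal was the highest of the 10 arrays, at 202.

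cKO 5 was high at Tspan2 A_51_P394394 (5.20), Gal3st1 (4.15), Qdpr A_55_P2080774 (2.48), Nkx6-2 (3.57), Lpar1 (0.83) and Trf A_55_P2037585 (5.51). It was also high in the median deviation of all members (0.51, next 0.25), of the members without Enpp2 (0.51), of the myelin membrane proteins (0.50), of the enzymes (0.48) and of the receptors (0.53). Its median Cy5 signal was the lowest of the 10 arrays, at 146.

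The other values past that limit were cKO 2 at Mbp A_55_P1992160 (0.94, next 0.59), cKO 4 in the Schwann cell list (−0.054) and cKO 1 in the list of thalamus and neighbouring regions (0.31).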

How the results depend on the processing

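The higher cKO values of the member probes as a whole kept their direction in every setting tried, with a median difference above 0. Probes higher in cKO were fewest, as a share, at 38 of 49 with slide 2 alone and 40 of 51 with slide as a fixed block, then 42 of 51 without both replicates numbered 5 and 43 of 51 without slide 3 or with the processed signals; in the other settings with 50 to 53 probes at least 45 were higher, and of 41 genes 37 by the brightest probe and 39 by the mean of their probes. The median difference was 0.12 with slide as a fixed block, 0.11 with slide 2 alone, 0.20 with array weights, and 0.19 to 0.33 when 1 array was left out, lowest without WT array 5. In alternatives chosen after seeing the data it was 0.15 without both replicates numbered 5 and 0.15 without slide 3. The call of 1 probe, Tspan2 A_55_P2028837, was lost (0 probes called) under plain subtraction, the processed signals, all spots in the background fit, median centring, the Cy5 channel alone, slide as a fixed block, slide 2 alone, both replicates numbered 5 left out and slide 3 left out; with 1 array left out the count was 0 to 2, being 0 without cKO array 1, 3, 4 or 5 or WT array 3 or 4, and 2 without WT array 1, where Mag was added. With the brightest probe per gene, where this probe is not tested, or the mean of a gene's probes, 0 members were called. The replicate block also called 0 member probes. Samples of the same number did not deviate together (correlations of −0.56 to 0.16). No pairing by number was thus seen, which does not show that there was none. The median WT level was 2.81 with an offset of 16, 3.37 with plain subtraction, 3.37 from the processed signals and 2.68 for the brightest probe per gene. Median centring moved the median of all probes to −0.06, and the members' median exceeded it by 0.27. The cause of these changes was not tested. Dim reference spots limit 11 of the 51 member probes.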
